A study of Mus musculus and Bos taurus with 6 samples.

Results

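The predicted bovine miRNA precursors are the hairpins that the miRDeep2 software proposed as miRNA genes from small RNA reads of lactating bovine mammary gland. All 767 rows of the bovine prediction list were taken as members, of 1590 predicted precursors for bovine and mouse together. Of the 767 precursors, 706 had at least 1 line in the count files of the bovine libraries, and these gave 849 lines, 703 for the mature arm and 146 for the star arm. The study sequenced small RNA from lactating mammary gland of the cow and the mouse, and from AGO2 precipitates of the mouse gland, to list the miRNA of each. The mouse gland libraries used here for comparison came from 2 FVB/N mice at day 12 of lactation. The bovine group held 2 libraries, called pool 1 and pool 2 here, each made from mammary biopsies of 2 multiparous Holstein cows at mid-lactation, so the 4 cows were seen only as pools. All 4 cows received a low-forage diet based on natural grass hay, with forage and concentrates at about 46 to 54. The bovine group thus held 1 breed, stage and diet, and no untreated or non-lactating cow. The comparisons below were between pools, between classes of score, and with the known miRNA of the same libraries.

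MiRNA genes are transcribed as long RNA that fold into a stem and loop. The enzymes Drosha and Dicer cut the stem, and the strand that is then kept by an Argonaute protein is called the mature miRNA, the other the star. A target is recognised chiefly through the seed, the bases 2 to 8 of the mature strand. A prediction program reads the same process backwards, since it looks for a genome stretch that folds into a hairpin and whose reads stack on the mature arm, less often on the star arm and rarely on the loop. The miRDeep2 score weighs these signs, so the score and the reads in the list were not independent of each other. In the mammary gland, known miRNA such as the miR-200 family mark the epithelium that makes milk.

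The sequences below carried most of the counts or the highest scores. The seed is in capitals in the mature sequences. Levels are given in RPM, the read counts of a line divided by the sum of its library and scaled to the usual common total. The 4 predicted miRNA that reached 100 RPM in at least 1 pool were these:
bta-10_2736-3p: gUGGGACGcgugcguuuu
bta-5_32567-5p: aAAGGGGAaaggugcuuuug
bta-16_10094-5p: aAAAAGUUcguucagguuuuu
bta-16_10667-5p: cAUUGGUGguucaguggu

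The 4 most highly scored mature sequences were the following, shown beside the known bta-miR-2284z, which the upper pair resembles:
bta-X_39470-5p: gAAAAAGUuuguuuggguuuuu
bta-1_846-5p: cAAAAAGUuuguuuggguuuuu
bta-26_24925-3p: cCAAACCAguugugccuguag
bta-25_23442-3p: uUGCAGCGuucaguuuu
bta-miR-2284z: aAAAAAGUuuguuuggguuuuu

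In the precursors, capitals mark both arms of bta-26_24925 and bta-1_1509, and the mature arm alone in the others. These 5 show an abundant member, a high score, a hairpin read on both arms, a hairpin read mostly in pool 2, and a precursor whose mature sequence was also listed on the opposite strand. Coordinates are on the bovine assembly UMD3.1, counted from 1.
bta-16_10094, chr16:29150096-29150144, plus strand: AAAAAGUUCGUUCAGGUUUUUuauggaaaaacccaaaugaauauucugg
bta-X_39470, chrX:30190502-30190562, plus strand: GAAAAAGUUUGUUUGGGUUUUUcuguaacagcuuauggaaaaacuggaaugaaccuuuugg
bta-26_24925, chr26:33108888-33108944, plus strand: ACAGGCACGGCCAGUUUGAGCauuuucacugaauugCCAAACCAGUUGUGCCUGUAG
bta-1_1509, chr1:130294952-130295010, minus strand: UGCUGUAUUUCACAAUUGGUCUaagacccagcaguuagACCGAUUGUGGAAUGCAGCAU
bta-5_31417, chr5:38360853-38360909, plus strand: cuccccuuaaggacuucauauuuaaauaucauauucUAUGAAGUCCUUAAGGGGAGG

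The count files held 9402483 counts in pool 1 and 10613807 in pool 2 over 1539 lines. A count of 0 allowed up to 0.319 RPM in pool 1 and 0.283 RPM in pool 2, counting error only. Known bovine miRNA took 98.8% ± 0.0341 (SD, n = 2) of the counts. The 5 epithelial markers (miR-200a, miR-200b, miR-200c, miR-141 and miR-205) summed to 76764 and 78565 RPM in pools 1 and 2. The endothelial pair of miR-126 arms summed to 62356 and 55972 RPM, and the 3 stromal markers to 77305 and 62988 RPM. The 3 striated muscle markers summed to 727 and 782 RPM, nearly all miR-1. The 4 leukocyte markers reached 2367 and 3049 RPM, and the 2 erythroid markers 1454 and 868 RPM. The biopsies thus held epithelial, vascular and stromal miRNA together, and which cells the predicted miRNA came from cannot be told apart in whole tissue.

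Predicted miRNA took a small share of the libraries, 0.304% of counts in pool 1 and 0.283% in pool 2 (0.294% ± 0.0144, SD, n = 2). A count in either pool was found for 679 of the 849 lines, 80.0%, beside 86.6% of all 1539 lines. The 95% exact interval was 77.1 to 82.6, with lines taken as independent, and says nothing of the spread between pools. Only 345 lines, 40.6%, had a count in both pools, beside 59.3% of all lines. At least 10 counts over both pools were reached by 191 lines, 22.5%, beside 43.9% of all lines. The median line held 2 counts over both pools, against 103.5 for the 512 known bovine miRNA. Most members were thus too sparse for the pools to be compared at this depth. At 100 RPM in at least 1 pool stood 4 predicted lines, 0.471%, beside 11.2% of all lines and 29.1% of the known bovine miRNA.

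Counts were concentrated in a few lines. The 2 most abundant took 51.9% of all predicted counts, the upper 4 took 64.5%, and the upper 10 took 74.8%. The most abundant, bta-10_2736-3p, had 7893 counts in pool 1 and 7684 in pool 2 (782 RPM ± 81.7, SD, n = 2). Its precursor on chromosome 10 carried an Rfam alert for rRNA/tRNA in the list, which marks likeness to those structural RNA. It had no star read, its randfold entry, a test of the fold against shuffled sequence, was "no", and its score was 1.2. Next came bta-5_32567-5p with 8028 and 6844 counts (749 RPM ± 148, SD, n = 2) and a score of 3.5. The pools differed in which of these 2 lines was the higher.

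The third, bta-16_10094-5p, had 1889 and 2208 counts (204 RPM ± 5.04, SD, n = 2), the closest agreement of the 4. The count files placed it on the 5′ arm of a known precursor, bta-mir-2285t, whose listed 3′ arm had 233 and 369 counts. The line thus had 8.11 times the counts of that named arm in pool 1 and 5.98 times in pool 2. The list also gave its sequence at a position on chromosome 4, bta-4_29726. Its counts therefore cannot be placed on the bta-mir-2285t hairpin alone. The fourth, bta-16_10667-5p, had 1362 and 1898 counts (162 RPM ± 24, SD, n = 2). All 4 had scores between 1 and 5, and none had a star read in the list.

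The list gave 302 precursors a score under 1, 302 a score from 1 to 5, and 163 a score of 5 or more. The scores ran from 0.0 to 3297.3 with a median of 1.4, and 18 precursors reached 100. The 5 highest scores were those of bta-X_39470 with 3297.3, bta-1_846 with 3291.5, bta-26_24925 with 2818.9, bta-25_23442 with 972.2 and bta-8_37539 with 799.3. Scores next to the limits were tied, and the members named here had the most list reads among the ties. Next to the limit of 1, 19 precursors stood at 0.9, among them bta-21_20033 and bta-22_20963. At 1 stood 19, among them bta-29_26806 and bta-26_25047. Next to the limit of 5, 5 precursors stood at 4.9, among them bta-X_40169 and bta-1_650. At 5 stood 12, among them bta-22_21141 and bta-19_15270. Reads in the list rose with the class, with medians of 2, 9 and 27 reads. In the lowest class 76.8% of precursors rested on at most 3 reads, against 1.23% in the highest.

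Star reads were present in 147 precursors, 19.2%, with 3.64%, 10.3% and 64.4% from the lowest class to the highest. No precursor without star reads scored above 6.1, whatever its reads. Of the 88 precursors with at least 100 reads, the 56 without star reads had a median score of 1.5. The 32 with star reads had a median score of 139. In the 18 precursors of score 100 or more, the score divided by the total reads lay between 0.505 and 0.522. Their star reads ran from 1 to 1806 with a median of 6. In these 18 the score was thus nearly proportional to the total reads, and less so to the mature reads, where the ratio ran from 0.505 to 0.759.

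**Figure D1:**
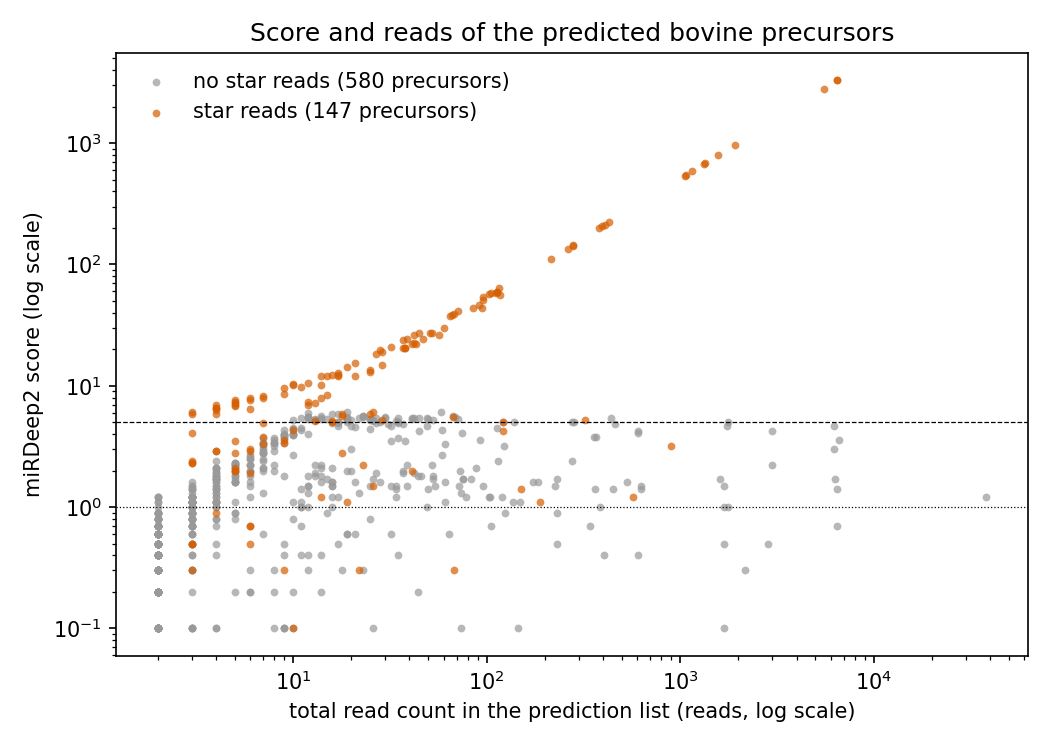
Each point is a predicted bovine precursor, with its total reads in the prediction list on the x axis and its miRDeep2 score on the y axis, both on log scales. The rising branch is made of precursors with star reads, though 42 of the 147 with star reads score under 5. The 580 drawn without star reads stay at or below 6.1, and 40 precursors listed at a score of 0 are not drawn. The dotted and dashed lines mark scores of 1 and 5.

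In the pools, the mature lines followed the same order. A count in either pool was found for 66.7% of the 276 mature lines of score under 1, 83.7% of the 276 from 1 to 5, and 96.0% of the 151 of score 5 or more. The median counts over both pools were 2, 4 and 12. The same reads entered the score and the counts, so this order was given by the list in part. Across the 560 mature lines with a count, score and summed count had a Spearman rho of 0.508, as a description. Lines of score 1 to 5 held 74.3% of the predicted counts, lines of 5 or more 19.9%, and lines under 1 held 5.81%. The first of these shares rested on the 4 lines at 100 RPM, since without them the class from 1 to 5 held 5766 counts, against 11674 in the class of 5 or more.

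**Figure D2:**
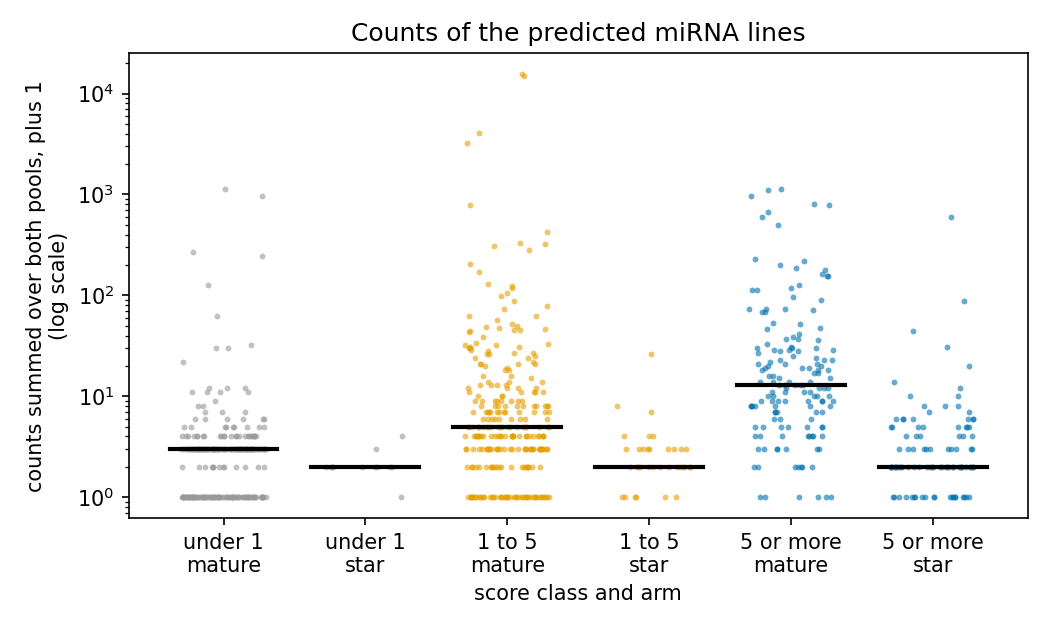
Each point is a line of the bovine count files, with the counts of both pools summed plus 1 on a log y axis and the score class and arm on the x axis. Bars mark the medians with the same 1 added. Without it the medians rise over the mature lines from 2 to 12 counts, while the 2 highest lines stand in the class from 1 to 5.

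Within the class of score 5 or more, bta-26_24925-3p led with 399 and 720 counts. It was followed by bta-22_21141-5p with 474 and 624, bta-25_23442-3p with 366 and 600, bta-12_5858-3p with 319 and 491, and bta-6_33860-3p with 400 and 380. From 1 to 5, the fifth line after the 4 above was bta-29_26806-5p with 249 and 533. Under 1 the leading lines were bta-7_35384-5p with 481 and 649, bta-13_7394-3p with 420 and 546, bta-24_23039-5p with 108 and 159, bta-3_29333-5p with 106 and 140, and bta-21_20033-5p with 56 and 71. Of these 11 lines, 10 were higher in pool 2 in RPM. Over all predicted lines with at least 10 summed counts, 90 of 191 were higher in pool 2, 47.1%, beside 41.9% of all 676 bovine lines with that many.

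The list and the count files gave different reads for the same member. The mature reads in the list were 1.74 times the summed counts at the median of the 560 mature lines with a count. For 21 lines the list gave over 10 times more. The 2 highest scores belonged to this set. Thus bta-X_39470-5p had 6461 mature reads in the list and only 58 and 67 counts in the pools, and bta-1_846-5p had 6445 reads and 56 and 61 counts. Each differed from the known bta-miR-2284z by 1 base, A1G and A1C respectively, counted from the 5′ end of the known miRNA. That known miRNA had 1989 and 1944 counts. Others of the 21 lines also lay 1 base from it, though not all did. Examples are bta-1_1257-5p with 6283 mature reads in the list and 3 and 6 counts, and bta-4_30276-5p with 6213 reads and 4 and 3 counts. The opposite held for 17 lines, with fewer reads in the list than in the pools. The list gave bta-5_32567-5p 32 mature reads against 14872 counts, and bta-16_10667-5p 31 against 3260. Prediction used reads with few genome alignments, while counting mapped the reads to the precursors, and the part of that step in these gaps was not tested.

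A further 61 precursors had no line of their own, and for 57 of them the mature sequence stood on another line. The other 4 were bta-5_31862, bta-19_16125, bta-14_8436 and bta-13_7545. Of these, bta-5_31862 held 6617 reads in the list. Its mature sequence is the sequence of bta-16_10667-5p moved by 1 base:
bta-5_31862: gCAUUGGUgguucagugg
bta-16_10667-5p: cAUUGGUGguucaguggu

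Reads on both arms are the mark of a cut hairpin. Lines for both arms existed for 143 precursors, 107 of them had a count on both, and 7 had at least 10 counts on each. The foremost was bta-26_24925, with 399 and 720 counts on the 3p arm and 210 and 393 on the 5p arm. The ratio of the arms was 1.9 in pool 1 and 1.83 in pool 2, and so hardly moved between pools. In bta-21_19354, with a score of 541.8, the 5p arm had 99 and 128 counts and the 3p arm 55 and 31, so the ratio was 1.8 and 4.13. In bta-16_11084 the arm called star was the more abundant, with 19 and 24 counts against 15 and 13. The star line exceeded the mature line in 14 of the 143 precursors.

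The 2 pools gave like values for the abundant members and unlike values for the sparse ones. Over 189 lines with at least 10 summed counts and none at 0, the log2 ratio of pool 1 to pool 2 had a median of 0.07 and an SD of 1.00. The SD was 0.63 for known bovine miRNA, which were more abundant. More than 2-fold apart were 46 of 191 predicted lines, 24.1%, beside 13.2% of all 676 lines and 9.12% of known lines with that many counts. Over lines with 10 to 1130 summed counts, 24.6% of predicted and 15.7% of known lines were over 2-fold apart. The share was 8.82% for lines of miRNA listed from other species. Within narrower ranges, predicted lines did not always have the larger share. With 10 to 29 summed counts 33.3% of predicted and 39.6% of known lines were over 2-fold apart. With 30 to 99 the shares were 23.4% and 11.5%, and with 100 to 1130 they were 2.63% and 4.30%. Pools of 2 cows do not separate animals from library preparation, and with 2 libraries no test was made.

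The member furthest apart between pools among the 46 was bta-1_1509, a hairpin on chromosome 1 with a score of 59. Its 3p arm had 1 count in pool 1 and 72 in pool 2, a ratio of 63.8 in RPM with a 95% exact counting interval of 11.1 to 2554. Its 5p arm had 0 and 30 counts, at least 8.86-fold higher in pool 2 against a floor of 3 counts in pool 1. Both arms were therefore read almost solely in pool 2, with the 3p arm at 2.4 times the 5p arm there. Its stem paired 81.4% of its 59 bases. The most abundant line over 2-fold apart was bta-26_25421-5p, with 285 and 140 counts, 2.30-fold higher in pool 1 (interval 1.87 to 2.83).

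**Figure D3:**
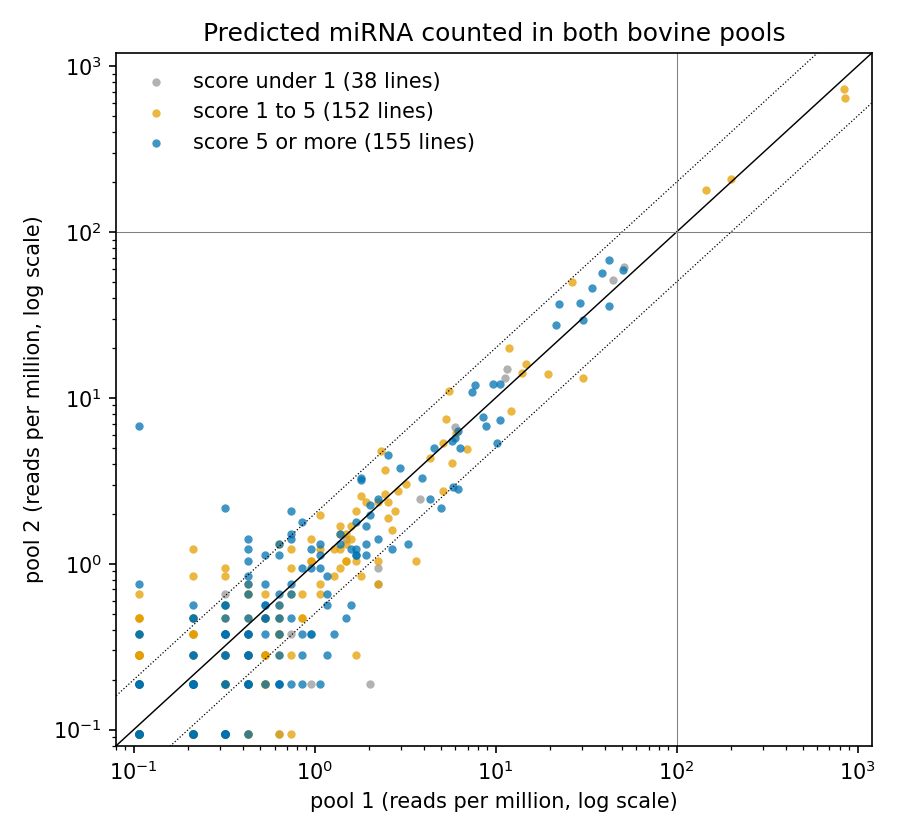
Each point is 1 of the 345 predicted lines counted in both bovine pools, with RPM in pool 1 and pool 2 on log axes, coloured by score class. The solid line marks equal values, the dotted lines 2-fold, and the grey lines 100 RPM. The 4 lines above 100 RPM lie near the line of equal values, and bta-1_1509-3p lies far above it at the left.

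Some members held the sequence of a known miRNA. The whole sequence of 14 predicted lines lay inside a listed known miRNA, and 11 of these began at its first base. They held 3627 counts, 6.18% of the predicted counts. Thus bta-13_7394-3p was the first 17 bases of bta-let-7b, a miRNA of cell differentiation:
bta-13_7394-3p: uGAGGUAGuagguugug
bta-let-7b: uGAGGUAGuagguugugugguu
bta-22_21141-5p: aCUGGACUuggagucag
bta-miR-378: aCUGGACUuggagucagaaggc
bta-7_35384-5p: uGCGGGAUcuuuaguugugg
bta-miR-3432: uGCGGGAUcuuuaguuguggug

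The known miRNA were counted on lines of their own. The predicted line had 0.128 counts for every 100 of bta-let-7b, 9.65 for every 100 of bta-miR-378 and 12.9 for every 100 of bta-miR-3432. Their precursors lay on chromosomes 13, 22 and 7, with scores of 0.5, 5 and 0.3. Another member, bta-12_5596-5p, had 52 and 117 counts and the first 18 bases of bta-miR-6516, which had 71 and 201. A further 15 lines shared at least the first 16 bases with a known miRNA and then differed. The most abundant was bta-12_5501-3p with 132 and 150 counts, which left bta-miR-145, a miRNA of smooth muscle, after 19 bases. Also bta-13_6408-5p, with 37 and 35 counts and a score of 5, shared its first 16 bases with bta-miR-24-3p. These ends are shown because the difference lies in the last bases only:
bta-12_5501-3p: gUCCAGUUuucccaggaauuu
bta-miR-145: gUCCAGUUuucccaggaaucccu
bta-13_6408-5p: uGGCUCAGuucagcagau
bta-miR-24-3p: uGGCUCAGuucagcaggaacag

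Some members resembled the miR-2284 and miR-2285 family, a large group of hairpins of ruminants with U-rich 5p arms. Among mature sequences, 27 lay within 2 substitutions of a known miRNA of the same length, and for 23 of them that miRNA belonged to this family. A pair of short motifs was searched on the given strand, AGUUNNUUNNGG for 5p arms, taken from bases 6 to 17 of bta-miR-2284z, and GNANNAACUUU for 3p arms, taken from bases 8 to 18 of bta-miR-2285f, where N is any base. The motifs were chosen after these sequences were seen, and both source miRNA belong to the 48 known lines counted next. The shares are therefore a description. No predicted line held both motifs. Either motif was found in 31 of the 48 known miR-2284 and miR-2285 lines, and in 1 of the 464 other known bovine miRNA. It was found in 53 of the 849 predicted lines, 6.24%, beside 6.25% of all 512 known bovine lines and 5.52% of all 1539 bovine lines, so the share was not higher in the members. It was found in 0 of 854 predicted and 895 known mouse lines. The 53 lines held 7955 counts, 13.6% of the predicted counts, and 51.5% of those came from bta-16_10094-5p alone.

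On the precursors, either motif was present on the given strand in 63 of 767, 8.21%, and on the reverse complement in 47. In the mouse 4 of 823 precursors held a motif on the given strand, 0.486%. The share rose from 3.64% under a score of 1 to 7.95% from 1 to 5 and 17.2% at 5 or more. Of the 18 precursors with a score of 100 or more, 9 held a motif. The 63 precursors lay on 25 chromosomes or scaffolds. They folded with a median free energy of -19.6 kcal/mol, against -25.6 for all precursors, and with 74.2% of bases paired against 68.2%. Over all predicted mature sequences, with or without a motif, the most shared seeds were AAAAAGU with 13 distinct sequences and AAAAGUU with 7. Examples of lines with a motif are these:
bta-14_8643-5p: aAAAAGUUaguuuagguuuuu
bta-11_3777-5p: aAAAAGUUcguucggguuuucu
bta-28_25961-5p: cAAAAAGUucauucagguuuuu
bta-6_33860-3p: aAAACACGaacaaacuuuuugg

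The counts of those in pools 1 and 2 were 275 and 398 for bta-14_8643-5p, 72 and 127 for bta-11_3777-5p, 4 and 13 for bta-28_25961-5p, and 400 and 380 for bta-6_33860-3p. The last is a 3p arm. The count files placed 5 predicted lines on the precursor of a known bovine miRNA, 4 of them of mir-2285. These included bta-28_25961-5p, on bta-mir-2285h. For bta-mir-2285e-2 that line was bta-24_23039-5p with 108 and 159 counts. For bta-mir-7864, bta-22_20208-5p had 6 and 14 counts beside 5 and 2 for the known arm.

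Seeds of known bovine miRNA were found on 84 of the 703 mature lines, 11.9%, and on 26 of the 146 star lines. For the 3 classes of score the shares of mature lines were 7.25%, 15.9% and 13.2%. Among 511 distinct known sequences, 151 shared their seed with another known one, 29.5%. A known miRNA at 100 RPM was matched by 42 mature lines. The 5 most abundant were bta-16_10094-5p and bta-14_8643-5p, with the seed of bta-miR-2284ab, and bta-7_35384-5p, bta-22_21141-5p and bta-13_7394-3p, named above as pieces of known miRNA. The likeness could run past the seed, as in bta-1_650-5p, which had 5 and 7 counts. From base 2 it was identical over 14 bases to bta-miR-143, a stromal miRNA with 592740 and 517853 counts, while the base before the seed differed:
bta-1_650-5p: aGAGAUGAagcacuggagc
bta-miR-143: uGAGAUGAagcacuguagcucg

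Identical mature sequences came from several places in the genome. The 767 precursors held 707 distinct mature sequences, and 49 of these stood at more than 1 position, covering 109 precursors, 14.2%. Of these, 42 stood at 2 positions, 5 at 3, 1 at 4 and 1 at 6. Identical whole precursors were fewer, 9 sequences in 22 rows. A read cannot be placed at 1 of several identical positions. The list gave some copies the same reads, such as 603 for bta-16_10029 and each of its copies. Other copies had unlike reads, such as 532 for bta-28_26492 and 364 for bta-10_2858. For 19 of the 49 sequences the scores of the copies fell in different classes. The copies of the mature sequence of bta-X_39470 scored 3297.3, 1.4 and 0.7 with 6466, 6435 and 6461 reads, and only the first had star reads. The sequences at 6 and at 4 positions were the following, with the most counted of the 5 at 3 positions:
bta-13_6423: uGUUGCAGuguagacucuuccag
bta-19_16103: aCAGGGGAuggucugggcugg
bta-16_10029: aAAGUGGGcaugugugugac

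The first stood at 6 positions on chromosome 13 and had 2 counts in pool 1 and 0 in pool 2. The second stood at 4 positions on chromosome 19 with 4 and 2 counts. The third stood at 1 position each on chromosomes 2, 10 and 16 with 182 and 148 counts, and its copies scored 0.4, 4.1 and 4.2. The sequences with the most positions thus had few counts, unlike the third.

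Known miRNA genes often lie in clusters that are transcribed together. Within 10 kb of another predicted precursor, on either strand, lay 90 of the 767, 11.7%, in 40 groups. Of the groups, 35 were pairs, 2 held 3 members, 2 held 4 and 1 held 6. In 23 of the 40 groups all members had the same mature sequence. The densest group held the 6 copies on chromosome 13, within 482 bases at chr13:25363348-25363829, each with 2 reads in the list. The next held 4 precursors within 1910 bases at chr2:125499917-125501826 on the minus strand, and its sequences were of 2 kinds, the outer pair differing at the first base:
bta-2_18081: cCCAACGUggauaccccgggagguc
bta-2_18084: aGAAAAACcaugcaggaaacagcu
bta-2_18088: aGAAAAACcaugcaggaaacagcu
bta-2_18089: aCCAACGUggauaccccgggagguc

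In the pools bta-2_18081 had 6 and 12 counts, bta-2_18084 had 21 and 8, and bta-2_18089 had 16 and 3. With counts this low, whether the neighbours differed between pools in unlike directions was not tested. By chromosome, precursors were most frequent on chromosome 19 with 50 and on chromosome 13 with 45, and rarest on chromosome 27 with 4. No bovine gene annotation was used here, so the genes at these sites were not named.

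Precursors also overlapped. On the same strand 17 pairs overlapped, and 16 of them shared the mature sequence. On opposite strands 10 pairs overlapped, and 7 of them had the same mature sequence on both strands. For bta-5_31417 and bta-5_32572, on opposite strands, the list gave 113 and 112 reads and scores of 58.9 and 58.3. For such pairs the strand a read came from cannot be told apart. Some members lay opposite the sequence of a known miRNA. With miRNA named miR-2284 or miR-2285 left out, 18 precursors held at least 18 bases of a known miRNA in the opposite orientation. They had a median of 19.5 reads in the list. The most reads, 2990 and 2985, were those of bta-4_29726 and bta-16_10094, opposite bta-miR-2312. That miRNA itself holds the motif GNANNAACUUU, so the set was not free of sequences like this family. The known miRNA included bta-miR-126, bta-miR-191, bta-miR-194 and bta-miR-299. The precursor opposite miR-126, bta-11_5290, had 0 and 0 counts on its mature 3p line and 1 and 1 on its 5p line, where bta-miR-126-3p had 363884 and 324697. The precursor opposite bta-miR-299 also held it in the same orientation, and its mature line, with 5 and 5 counts, was identical to bases 2 to 22 of bta-miR-299, which had 499 and 375. It paired 85.7% of its bases, and its mature arm is in capitals:
bta-21_20150, chr21:67563577-67563625, minus strand: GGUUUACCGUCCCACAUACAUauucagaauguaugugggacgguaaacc

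Dicer products are mostly of 21 to 23 bases. Predicted mature sequences ran from 17 to 25 bases, and 60.5% had 21 to 23 against 82.6% of known bovine miRNA. From 17 to 19 bases were 20.9% of predicted and 1.76% of known sequences. The class of score 5 or more was nearest to the known miRNA, with 82.1% at 21 to 23 bases and 7.28% at 17 to 19. Under a score of 1 these shares were 52.2% and 25.7%. The median GC content fell over the same classes from 57.1% to 54.5% and 47.8%, and was 46.7% in known miRNA.

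**Figure D4:**
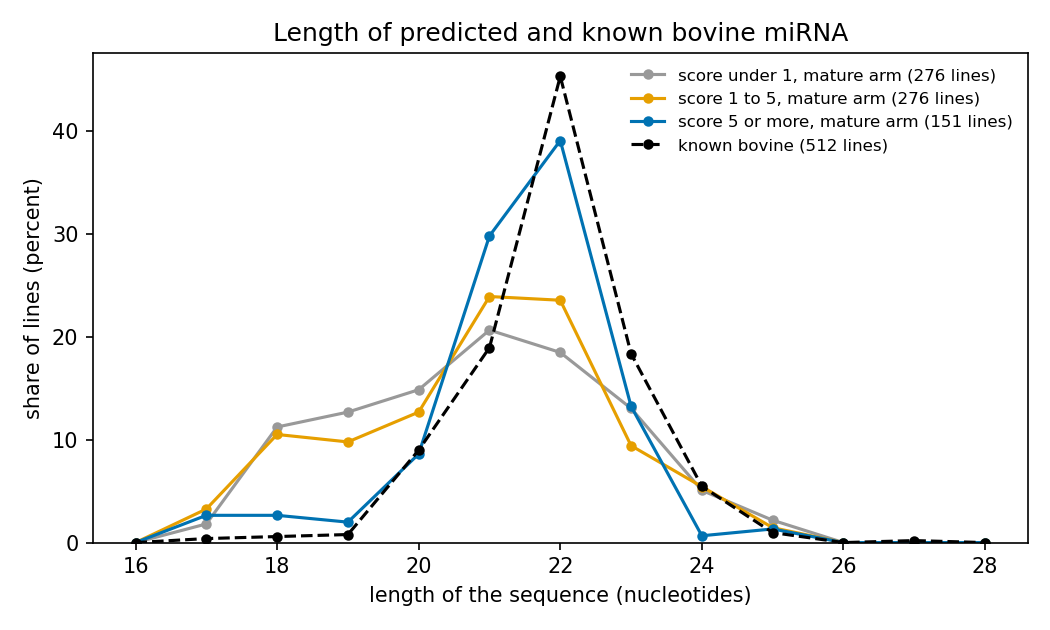
Share of lines in percent by length in nucleotides for predicted mature lines of each score class and for the 512 known bovine miRNA. The curve for a score of 5 or more and that of the known miRNA peak at 22, and the lower classes carry a shoulder at 18 and 19.

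The 3′ ends differed from those of known miRNA. Of the 767 mature sequences in the list 20 ended in A, 2.61%, against 17.4% of known bovine miRNA. Star sequences with reads ended in A in 6.12%, and star sequences without reads, which the program derives from the fold alone, in 21.9%. The libraries were made by adding a poly(A) tail, and stretches of A were removed from the reads, so an A at the end of a small RNA cannot be told apart from the tail. The base after the mature sequence was A in 25.5% of the 400 precursors with a 5p mature arm. After star sequences without reads on the 5p arm it was A in 22.1% of 290. Predicted mature sequences ended in G in 42.4% and in U in 34.3%. A run of UUUU closed 6.69% of the 703 mature lines and 3.52% of known miRNA, and 11.3% of the lines of score 5 or more. U was the first base in 36.7% of mature lines and 43.8% of known miRNA.

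**Figure D5:**
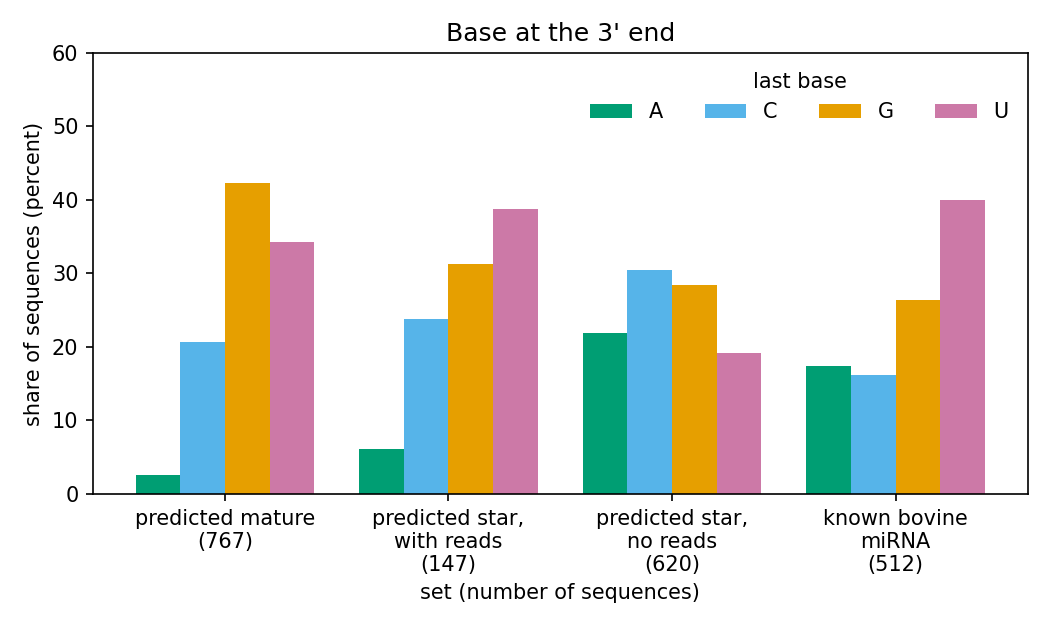
Share of sequences in percent by the base at the 3′ end, for the predicted mature sequences, predicted star sequences with and without reads, and known bovine miRNA, with the number of sequences in parentheses. A closes 2.61% and 6.12% of the predicted sequences that were read, and 21.9% and 17.4% of the other sets.

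With RNAfold the precursors had a median free energy of -25.6 kcal/mol over a median of 60 bases. By class the medians were -25.25, -26.95 and -24.4 kcal/mol, and the interquartile ranges overlapped. The share of paired bases rose slightly, from a median of 66.7% under 1 to 68.0% and 70.4%. A randfold call of "yes" was listed for 88.1%, 81.1% and 93.3% of the 3 classes. The mature arm was the 5p arm in 400 precursors and the 3p arm in 367.

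A few members matched other small RNA. Only 2 precursors carried an Rfam alert, bta-10_2736 and bta-29_27558. The absence of an alert does not show that a member is unlike structural RNA. The abundant bta-16_10667-5p and the highly scored bta-25_23442 had no alert, but were not compared with bovine tRNA. The mature sequence of bta-29_27558-5p, with 112 and 211 counts, was found whole in mouse 5S rRNA genes. Over 6111 small RNA transcripts of the mouse, 21 predicted lines were found whole, in 15 cases in a miRNA, in 3 in a snoRNA, in 2 in an rRNA and in 1 in a scaRNA. The snoRNA match with the most counts was bta-13_7348-3p, with 24 and 25. Whether this mouse set held tRNA genes was not checked, so nothing is concluded from the absence of a tRNA match. No bovine annotation of tRNA or rRNA was used. A mouse set cannot show which bovine sequences lack such a source, so the number of members from structural RNA is not known.

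The mouse list was of like size, with 823 predicted precursors and the same median score of 1.4. Its highest score was 98.6, and star reads were present in 11.1% against 19.2% in the bovine list. Of the 854 predicted mouse lines 14.8% had a count in the gland libraries, and predicted mouse lines took 0.114% ± 0.0201 (SD, n = 2) of the mouse counts. Mouse RNA was extracted with another kit than bovine RNA, and the AGO2 precipitates may have added reads to the mouse list but not to these counts. Species, kit and the make-up of the list cannot be told apart. Only 2 predicted bovine sequences stood among the mouse lines, those of mmu-miR-299b-5p and mmu-miR-126b-5p, on the precursors opposite miR-299 and miR-126 named above.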

How the data were processed

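Small RNA of 2 bovine pools was analysed, with 2 mouse gland libraries for comparison, and the 2 AGO2 libraries were not used here. According to the methods, the authors removed poly(A) stretches, selected reads by size, mapped them to UMD3.1 or GRCm38 and predicted precursors with miRDeep2. The deposited score is the miRDeep2 score of each precursor, and its read numbers are whole-number counts over the samples of a species. The authors made the deposited counts per miRNA with the miRDeep2 quantifier on known and predicted precursors, and removed redundant lines. Builds are also named in the submitters' processing notes.

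RPM were computed over the sum of each library, 9402483 and 10613807 counts, and the limit of a count of 0 was set at 3 counts. Intervals for shares were exact binomial at 95% over the listed lines, taken as if independent. They do not measure the spread between pools or cows. Intervals for ratios between pools cover counting error only. The 2 pools hold different cows, but their spread may be partly technical. List positions were changed to count from 1. Seeds were bases 2 to 8, neighbours lay within 10 kb, and folds came from RNAfold 2.7.2. Tables were handled in pandas 2.3.3 (Python 3.11.15), with intervals from SciPy 1.17.1, arrays from NumPy 2.4.6 and plots from matplotlib 3.10.9. The functions were tested on simulated data. With 1 group of 2 pools, no test between conditions was made.

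The members and lists were chosen with earlier results of these data known. Members were named by rule: those at 100 RPM, the 5 highest scores, the 5 most abundant mature lines of each score class, the 3 sequences with the most positions (ties by count, a choice made after seeing the data), the 2 densest groups, the 5 most abundant that share a seed with a known miRNA at 100 RPM, and the 2 on each side of the score limits. Members named for both arms, for likeness to a known miRNA, for the miR-2284 and miR-2285 motifs, for gaps between list and pools or between pools, for overlaps, or for matches to mouse small RNA (GENCODE) were chosen after their values were seen. Alternatives were other limits, other scalings and each pool left out.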

Additional observations from a re-analysis of the deposited data

How the results depend on the processing

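Of the 679 predicted lines with a count, 345 had a count in both pools and 191 had at least 10 summed counts. Leaving out each pool gave 505 to 519. At 50 RPM in place of 100 RPM, 10 lines were counted in place of 4, while 2 other scalings, the mean of both pools and each pool left out (4 to 4) gave the same count. The share of counts of 0.294% became 0.277% with scores of at least 1 and 0.0581% with scores of at least 5, and 0.283% to 0.304% without each pool. Settings chosen after seeing the data gave 0.141% without bta-10_2736 and bta-5_32567, and 0.273% without lines inside a known miRNA or sharing its first 16 bases. The SD of the log2 ratio between pools fell from 1.00 to 0.48 at 100 summed counts. A score limit of 10 left 69 precursors in place of 163. Within 50 kb lay 138 precursors in place of 90, and 37 with each mature sequence taken 1 time, also chosen after seeing the data. Identical whole precursors were 9, in place of 49 repeated mature sequences. Seeds of bases 2 to 7 gave 153 matches in place of 84, and known miRNA at 100 RPM gave 42. A 3′ base other than A closed 97.3% of mature lines, a wider measure than the 6.69% with UUUU. No paired analysis was possible because the bovine pools form 1 group and no result came from a test. The median line had 2 counts, and the effect of depth was not tested.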
